A study of Mus musculus with 12 samples.

Results

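Collagens, the enzymes that fold, crosslink and cut the extracellular matrix, and the proteoglycans of the cell surface were followed in osteoblast-like cells under fluid shear. Members were taken by gene symbol alone: every probe with 1 symbol in the platform annotation that named a collagen chain, a lysyl oxidase, a procollagen hydroxylase or the collagen chaperone Serpinh1, a laminin chain, a matrix metalloproteinase (MMP), a tissue inhibitor of metalloproteinases (TIMP), an ADAMTS protease, a glypican, a syndecan, a fibulin, a fibrillin, a matrilin, or Sparc, Postn, Fn1 or Comp. This gave 138 probes of 72 genes, out of 28704 features and 10225 named genes on the array. Of these, 108 probes of 65 genes had enough values to be tested. The names to be matched were chosen with earlier results of these data known.

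The cells were MC3T3-E1, an osteoblast-like clonal line that derives from the mouse calvaria. In the 6 shear samples, confluent monolayers on glass slides were exposed in a parallel plate chamber for 5 h to a flow that pulsed at 1 Hz, with a shear stress that averaged 5 dyn/cm2. The 6 control samples were kept static in the same set-up, and per the labels the reservoir medium of that set-up held 1% serum. Samples came from 1 clonal line and the labels do not state separate cultures, so the spread behind each p-value may be no more than technical. Each of 6 spotted 2-colour arrays carried 2 samples of the same condition, 1 in Cy5 and 1 in Cy3.

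Bone matrix is built mainly of type I collagen, which osteoblasts secrete as procollagen after hydroxylation and chaperoned folding in the endoplasmic reticulum. Outside the cell, minor fibrillar chains such as those of type V collagen assemble into the same fibrils, and lysyl oxidases crosslink them. MMP and ADAMTS proteases cut matrix proteins and TIMPs block them, while glypicans and syndecans carry heparan sulfate chains that bind growth factors and matrix at the cell surface.

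A log2 signal here is the deposited log2 of a spot's net fluorescence over the median of its block on the array, so 0 is a typical spot, and a change that moved every gene alike would not show. Values are compared between samples for the same probe and not between probes. The number of features with a value ran from 18434 in control 4 to 23790 in control 1, and the array of control replicates 3 and 4 had the fewest. Samples sharing an array correlated at 0.954 to 0.981 and other samples of the same group at 0.873 to 0.915. Samples of different groups correlated at 0.844 to 0.898, a range that overlaps that of the same group. Of the osteoblast markers Runx2, Sp7 and Bglap were not analysed here. Among 5 osteoblast markers tested, Col1a2 had a mean log2 signal of 4.45 in shear and 4.40 in control samples and Col1a1 of 1.40 in shear and 1.65 in control samples. Alpl, alkaline phosphatase, was below the typical spot, at -0.95 in shear and -1.01 in control samples. Dlx5, an osteoblast homeobox factor, was the osteoblast marker that passed, with a log2 change of -0.97 ± 0.23 (SE, limma adjusted p = 0.0492). It lost the call when any single sample was left out (0.0540 to 0.0910).

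The results turned on 4 genes, Lox, Timp3, Col5a3 and Gpc1. For Timp3 and Col5a3, which changed in opposite directions, the 250 bases before the transcription start are shown to set the bases of a gene that rose beside those of one that fell. They were taken from RefSeq (GRCm38.p6), whose set of promoters as used here covers 2 of the 4 genes that passed. The Timp3 stretch lies at chr10:86300162-86300411 on the plus strand and the Col5a3 stretch at chr9:20815068-20815317 on the minus strand, both written 5′ to 3′ in the direction of the gene. Capitals mark the GC box searched (GGGCGG, on either strand).
Timp3: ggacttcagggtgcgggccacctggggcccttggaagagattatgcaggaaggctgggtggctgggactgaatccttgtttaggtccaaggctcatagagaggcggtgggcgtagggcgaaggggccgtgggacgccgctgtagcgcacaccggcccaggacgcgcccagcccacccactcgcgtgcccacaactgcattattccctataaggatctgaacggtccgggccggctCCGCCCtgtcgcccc
Col5a3: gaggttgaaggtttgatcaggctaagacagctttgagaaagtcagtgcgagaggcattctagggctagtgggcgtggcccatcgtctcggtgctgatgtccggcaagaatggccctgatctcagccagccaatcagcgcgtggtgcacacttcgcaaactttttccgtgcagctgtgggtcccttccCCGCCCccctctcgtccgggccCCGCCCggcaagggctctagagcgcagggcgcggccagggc
The Timp3 stretch held 65.6% G and C and 1 GC box, which starts at position -15 from the transcription start. The Col5a3 stretch held 62.8% G and C, 2 GC boxes, at -63 and -41, and 1 CCAAT at -122. The median G and C share of all 32851 stretches of the same length in that set was 52.4%, and 32.7% of them held a GC box. Of the 37 matrix genes in the set, counted with 1 stretch a gene, 24 held one. The first share counts every stretch and the second counts genes, so they are not on the same basis. CCAAT was in 33.8% of all stretches. The letters TATAAA (12.4% of all stretches), TGANTCA (6.75%), GGAATG (12.6%) and GAGACC (13.7%), searched on both strands, were in neither. A match is a description of these letters and not of a bound factor.

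The comparison asked which matrix genes differed between sheared and static cells. Of the 65 matrix genes tested, 2 rose (Lox and Timp3) and 2 fell (Col5a3 and Gpc1) under shear at an adjusted p under 0.05, with p-values adjusted over all 15603 features. Lox and Timp3 were 4.30-fold and 4.06-fold higher, and Col5a3 and Gpc1 were 6.93-fold and 5.32-fold lower. The other 61 genes, the major bone collagen chains among them, did not pass. Over all features 1.49% passed, 1.28% higher and 0.205% lower in shear, or 200 and 32 features. With each sample centred on features that had a value in all 12, which moved the median change of all features to -0.02, the split was 164 higher and 75 lower. With counts as small as 2, a share among the matrix genes is not a result about them as a class. Without adjustment, 8 of the 65 genes had p under 0.05, against 2157 of the 15603 features.

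The median log2 change of the matrix genes was 0.07, with 39 above 0 and 26 below, beside a median of 0.11 over all features. The share above 0 was 60.0% of the matrix genes and 61.0% of all features. A change of more than 1 on the log2 scale in either direction was found for 5 of the 65 (7.69%), and for 5.64% of all features. The groups did not overlap for 5 matrix genes. Every shear value was above every control value for Lox, Timp3, Adamts19 and Lamb1 (5.76% of all features), and every shear value was below every control value for Col5a3 (1.6% of all features). Because each array held a single group, the groups rest on 3 arrays each, and p-values that count 12 samples can be too small. In a fit on the mean of each array, 2 of the 65 matrix genes passed, Col5a3 and Lox. With any single sample left out, 1 to 3 passed, Col5a3 each time.

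**Figure D1:**
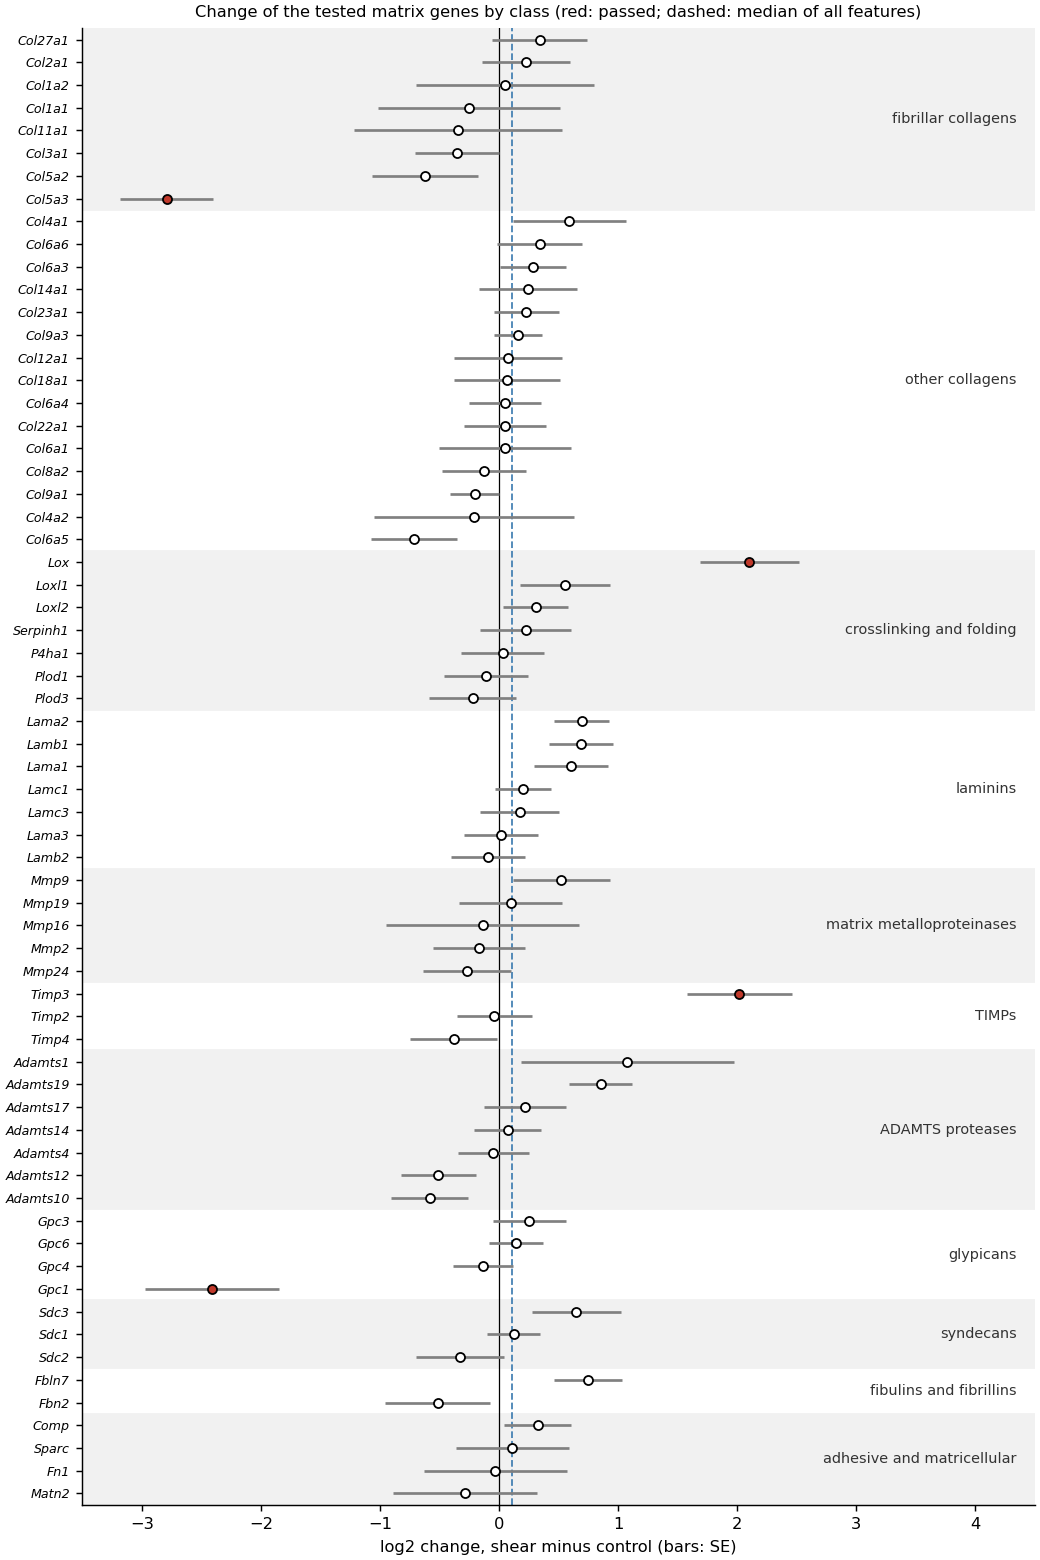
Log2 change, shear minus control, of the 65 matrix genes tested, with bars for the standard error, grouped by class. Filled red points are the 4 genes that passed and the dashed line is the median of all features (0.11). Most genes lie between -1 and 1, and the 4 that passed lie beyond 2 on either side.

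Among fibrillar collagens, 1 of 8 tested chains fell and none rose, and the median log2 change of the class was -0.30. The one that fell was Col5a3, which encodes the alpha 3 chain of type V collagen. Its log2 signal in shear samples had a lowest value of -0.20, a median of 0.43 and a highest of 1.68, against 3.17, 3.46 and 4.05 in control samples. The groups were separated by a wide gap, and the shear array of replicates 5 and 6 was the highest of the 3 shear arrays, at 1.65 against 0.36 and 0.05. The log2 change was -2.79 ± 0.39 (SE, n = 6 per group, limma adjusted p = 0.0034), which is 6.93-fold lower, with a mean of 0.69 ± 0.78 in shear and 3.48 ± 0.32 in control samples (SD). In bulk RNA, fewer cells of a kind and less RNA per cell cannot be told apart. Col5a3 passed under each of the 31 other settings tried, with changes from -3.27 to -2.47.

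Col5a2, the only other type V chain tested, and the chains that form the main fibrils did not pass. No Col5a1 probe was among the members. Col5a2, the alpha 2 chain of type V collagen, had a lowest, median and highest signal of 0.24, 1.28 and 1.96 in shear and of 1.21, 1.78 and 2.29 in control samples, and its change was -0.62 ± 0.44. Col3a1, type III collagen, was at 4.88, 5.37 and 5.62 in shear and 5.31, 5.65 and 6.02 in control samples, a change of -0.35 ± 0.35. On these probes the shear medians were lower, but the groups overlapped. The other Col5a2 probes had changes of 2.49 and 0.23, and the mean of its probes gave 0.70. Those of Col3a1 had changes of -1.39, -0.13 and 0.02. Col1a1 and Col1a2, the chains of type I collagen, had changes of -0.25 ± 0.76 and 0.05 ± 0.75. Their standard errors were wide beside the median of 0.30 over all features, and for Col1a1 the 95% interval of the change was -1.88 to 1.38. Col2a1, Col11a1 and Col27a1 changed by between -0.35 and 0.34.

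On the chosen probes none of 15 other collagen chains passed, and none had an unadjusted p under 0.05 in limma. Other probes of Col23a1 and Col22a1 had one under 0.05, with changes of -0.95 and -0.72, and did not pass. On the chosen probes the changes of the 15 chains ran from -0.71 to 0.59, with a median of 0.07. Of these changes 11 were above 0 and 4 below, where 61.0% of all features were above 0. Col6a5, a chain of type VI collagen, had the smallest p among the chosen probes. It had values in 5 shear and 4 control samples, at -3.38, -2.86 and -2.15 (lowest, median, highest) in shear and -2.71, -1.87 and -1.56 in control samples, for a change of -0.71 ± 0.36. Signals so far below the typical spot are dim, and the groups overlapped. Col4a1, a chain of the type IV collagen of basement membranes, was at 3.52, 4.18 and 4.34 in shear and 2.89, 3.44 and 4.27 in control samples, a change of 0.59 ± 0.48. Col6a3, another type VI chain, was at 4.14, 4.67 and 4.95 in shear and 3.87, 4.21 and 4.80 in control samples, a change of 0.29 ± 0.28. Both overlapped. For Col4a1, shear replicate 2 was at 3.52 and the other shear samples were at 4.10 to 4.34, beside a highest control value of 4.27. The other tested Col4a1 probe had a change of 0.77 ± 0.55.

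Of 7 enzymes and chaperones of collagen folding and crosslinking, Lox alone passed. Lox oxidises lysines of collagen and elastin, the first step of their crosslinks. Its lowest, median and highest log2 signals were 3.63, 4.11 and 4.58 in shear, against 1.22, 1.93 and 2.80 in control samples. The groups did not overlap, and the means of the arrays were 3.69, 4.11 and 4.49 in shear and 2.48, 2.08 and 1.42 in control. The change was 2.10 ± 0.42 (SE, n = 6 per group, limma adjusted p = 0.0255), 4.30-fold higher, with means of 4.10 ± 0.39 in shear and 1.99 ± 0.59 in control samples (SD). Leaving out shear replicate 1 ended the call (adjusted p = 0.0550), as did leaving out any of the 3 shear arrays (0.0530 to 0.144) or the control array of replicates 5 and 6 (0.0872), while the change stayed between 1.82 and 2.35 over all settings.

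The relatives of Lox had smaller values. Loxl1, known for the crosslinking of elastin, was at 1.53, 1.94 and 2.25 in shear and 0.18, 1.52 and 2.28 in control samples, a change of 0.55 ± 0.38. Its low values came from the control array of replicates 5 and 6. Loxl2, which crosslinks type IV collagen, was at 0.52, 0.61 and 1.30 in shear and -0.21, 0.52 and 0.74 in control samples, a change of 0.31 ± 0.27. A dimmer probe of Loxl2, number 12686, had a change of 1.23 ± 0.29 (adjusted p = 0.0610 with every probe tested), with medians of -0.45 in shear and -1.83 in control samples, and lacked values on 1 control array. Serpinh1, the collagen chaperone HSP47, changed by 0.23 ± 0.38 and P4ha1, a prolyl 4-hydroxylase subunit, by 0.03 ± 0.35. Plod1 and Plod3, lysyl hydroxylases of procollagen, changed by -0.11 and -0.22.

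The inhibitor class held the other gene that rose. Timp3 encodes a TIMP that binds to the matrix and inhibits MMPs and several ADAM and ADAMTS proteases. Its lowest, median and highest log2 signals were 4.34, 4.95 and 5.50 in shear, against 1.95, 2.74 and 3.87 in control samples. The groups did not overlap, although the control array of replicates 3 and 4, at a mean of 3.86, stood closer to the shear samples than the other control arrays, both at 2.44. The change was 2.02 ± 0.44 (SE, n = 6 per group, limma adjusted p = 0.0382), 4.06-fold higher, with means of 4.94 ± 0.42 in shear and 2.92 ± 0.80 in control samples (SD).

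A second Timp3 probe, number 6665, gave the same picture with less spread among controls. Its lowest, median and highest signals were 4.43, 4.64 and 5.87 in shear, against 2.23, 2.78 and 3.12 in control samples. Its change was 2.24 ± 0.32 (adjusted p = 0.0038 with every probe tested, a fit in which 1.62% of 21883 probes passed). On this probe the control array of replicates 3 and 4 was again the highest control array but lay nearer to the others. The call on the first probe was lost when any of shear replicates 1, 3, 5 and 6 or control replicates 1, 2 and 3 was left out, with an adjusted p of 0.0569 to 0.0752, and when any array but the control array of replicates 3 and 4 was left out (0.0596 to 0.192). Its change was 1.78 to 2.49 over all settings. Timp2 and Timp4 did not pass. Timp2 was at 3.09, 3.53 and 4.51 in shear and 3.41, 3.66 and 4.20 in control samples, a change of -0.04 ± 0.31. Timp4 was at -2.51, -1.27 and -0.91 in shear and -1.69, -1.15 and -0.69 in the 4 control samples with a value, a change of -0.38 ± 0.37.

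**Figure D2:**
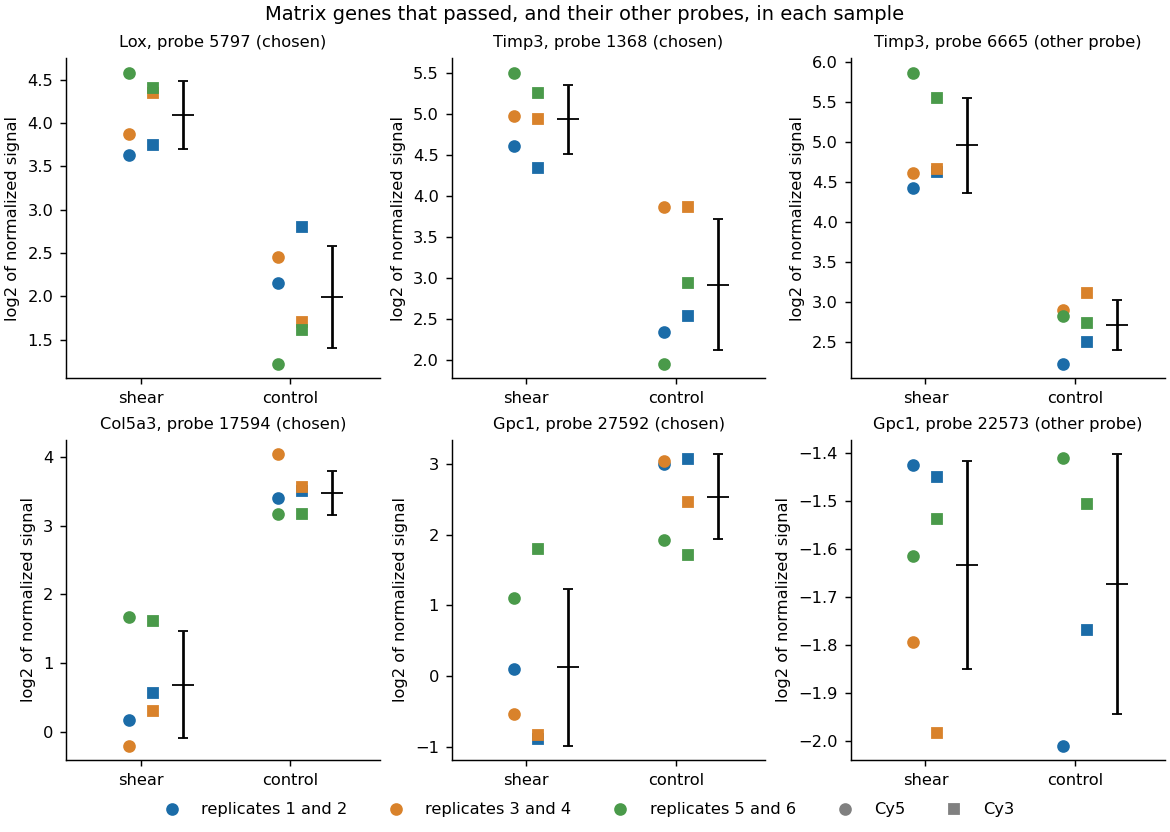
Log2 signal of Lox, Timp3, Col5a3 and Gpc1 in each of the 6 shear (left) and 6 control (right) samples, with other tested probes of Timp3 and Gpc1. Colours give the replicate pair that shares an array, shapes the dye, and bars the mean and SD, and each panel has its own axis. Both Timp3 probes and those of Lox and Col5a3 part the groups, while the Gpc1 probe that passed overlaps at the shear array of replicates 5 and 6 and the other Gpc1 probe shows no gap.

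None of the 5 MMPs tested passed, and none had an unadjusted p under 0.05 in limma. Mmp2, gelatinase A, was at 2.89, 3.71 and 4.65 in shear and 3.17, 3.98 and 4.28 in control samples. Its change was -0.16 ± 0.39, with a 95% interval of -0.99 to 0.66, so on this probe a change as large as that of Timp3 lies outside it. The other tested Mmp2 probe had a change of -0.50 ± 0.36. Mmp9, gelatinase B, was at -1.63, -1.12 and -0.53 in shear and -2.45, -1.66 and -0.83 in control samples, a change of 0.52 ± 0.41. Mmp24, a membrane-type MMP, was at 0.07, 0.38 and 0.55 in shear and -0.41, 0.70 and 1.27 in control samples, a change of -0.27 ± 0.37. Shear values of Mmp24 all lay within the range of the control values. Mmp16 and Mmp19 had changes of -0.14 and 0.10.

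None of 7 ADAMTS genes passed, and 1 had an unadjusted p under 0.05. Adamts19, a secreted protease of this family, was at -1.86, -1.65 and -1.60 in shear samples and at -2.97, -2.56 and -2.13 in 4 control samples. Every shear value was above every control value, but the control array of replicates 3 and 4 gave no value. Its change was 0.85 ± 0.27 (adjusted p = 0.154). Adamts10, which is linked to fibrillin microfibrils, was at -1.14, -0.75 and -0.37 in shear and -1.02, 0.11 and 0.29 in control samples, a change of -0.58 ± 0.33. The 2 low control values came from the array of replicates 3 and 4. Adamts12, a protease that cuts Comp, was at -3.12, -2.87 and -2.04 in 5 shear samples and -2.62, -2.30 and -1.67 in control samples, a change of -0.51 ± 0.31. Adamts1, which cuts aggrecan and versican, had a change of 1.08 with a standard error of 0.90 and was the 1 gene past 1 on the log2 scale that did not pass. Adamts4, Adamts14 and Adamts17 had changes of -0.05 to 0.22.

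Among 7 laminin chains, the components of basement membrane heterotrimers, none passed, 6 had a change above 0 and 2 had an unadjusted p under 0.05 in limma. Over all features 61.0% had a change above 0, and counts among 7 chains are too small to be read as a result about the class. Lama2, the alpha 2 chain, was at 2.16, 2.76 and 3.0 in shear and 1.86, 2.02 and 2.17 in control samples, a change of 0.69 ± 0.23 (adjusted p = 0.171). Of the shear samples only replicate 2 lay below the highest control sample. Lamb1, the beta 1 chain, was at 1.14, 1.30 and 1.79 in shear and 0.51, 0.62 and 0.95 in control samples, a change of 0.69 ± 0.27 (adjusted p = 0.253) without overlap. Its other tested probes had changes of -0.29 and 0.25. Lama1, the alpha 1 chain, had values in 4 samples a group, at -1.54, -1.31 and -1.01 in shear and -2.24, -1.92 and -1.50 in control samples, a change of 0.60 ± 0.31. Lama2, Lamb1 and Adamts19 passed when the array was left out of the model, a fit that treats the 2 samples of an array as independent. Lamc1, the gamma 1 chain, was measured by 7 probes whose changes ran from -0.68 to 1.19.

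Of 4 glypicans 1 fell. Gpc1 encodes glypican 1, a heparan sulfate proteoglycan held to the membrane by a lipid anchor. Its lowest, median and highest log2 signals were -0.89, -0.21 and 1.79 in shear, against 1.71, 2.72 and 3.07 in control samples. The highest shear sample, replicate 6, exceeded the lowest control sample, also replicate 6, and the array means were -0.39, -0.69 and 1.45 in shear and 3.03, 2.75 and 1.82 in control. The change was -2.41 ± 0.56 (SE, n = 6 per group, limma adjusted p = 0.0486), 5.32-fold lower, with means of 0.12 ± 1.11 in shear and 2.53 ± 0.60 in control samples (SD). The call stood close to the threshold. It was lost when any single sample but shear replicate 6 was left out (adjusted p = 0.0555 to 0.0941) and when any array but the shear array of replicates 5 and 6 was left out (0.0750 to 0.232). Without the shear array of replicates 5 and 6 the change was -3.07, the lowest over all settings, and the highest was -1.43.

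The other tested Gpc1 probe, number 22573, did not show this difference, with a change of 0.04 ± 0.27 and values in 4 control samples. It was a dim probe, with medians of -1.58 in shear and -1.64 in control samples. With the mean of both probes the Gpc1 change was -1.43 (adjusted p = 0.0819). Gpc3, Gpc4 and Gpc6 did not pass. Gpc3 was at -1.54, -0.39 and -0.25 in shear and -1.59, -0.77 and -0.39 in control samples, a change of 0.25 ± 0.31. Gpc6 was at 1.26, 1.83 and 2.27 in shear and 1.29, 1.72 and 1.82 in control samples, a change of 0.14 ± 0.23, and Gpc4 had a change of -0.13.

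Syndecans carry heparan sulfate on a transmembrane core, and none of the 3 tested passed or had an unadjusted p under 0.05 in limma. Sdc3 was at 0.82, 1.30 and 1.85 in shear and -0.23, 0.68 and 1.27 in control samples, a change of 0.65 ± 0.37. Sdc2 was at 2.39, 3.07 and 3.80 in shear and 2.58, 3.33 and 4.13 in control samples, a change of -0.33 ± 0.37, while its 3 other probes had changes of 0.10, 0.32 and 0.40. Sdc1 was at 2.93, 3.05 and 3.14 in shear and 2.54, 2.91 and 3.29 in control samples, a change of 0.12 ± 0.23. The shear values of Sdc1 were packed within the spread of the control values.

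The microfibril and adhesive proteins did not pass either. Fbln7, a fibulin, was at -0.90, -0.22 and 0.35 in shear and -1.71, -0.86 and -0.58 in control samples, a change of 0.75 ± 0.29 (adjusted p = 0.252). Fbn2, a fibrillin of elastic microfibrils, was at -0.08, 0.64 and 1.59 in shear and 0.86, 1.20 and 2.18 in control samples, a change of -0.51 ± 0.44. Both overlapped. Comp, a thrombospondin of cartilage and tendon, was at -0.31, 0.02 and 0.10 in shear and -0.77, -0.21 and -0.11 in control samples, a change of 0.32 ± 0.28. Sparc, the collagen-binding osteonectin of bone, was at 5.24, 5.57 and 6.15 in shear and 4.78, 5.42 and 6.35 in control samples, a change of 0.11 ± 0.48. Matn2, a matrilin, was at 0.18, 0.94 and 1.81 in shear and 0.30, 1.30 and 1.85 in control samples, a change of -0.29 ± 0.60. Fn1, fibronectin, had a mean of 5.09 ± 0.81 in shear and 5.12 ± 0.95 in control samples (SD), a change of -0.03 ± 0.60.

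Several matrix genes were measured by more than 1 probe. Among 27 matrix genes with at least 2 tested probes, 14 (51.9%) had all probes on 1 side of 0, against 57.4% of 4049 named genes. Of 43 other probes, 24 (55.8%) had the sign of the chosen probe, against 65.9% for all named genes. These shares were not tested against each other. Timp3, Lama2, Col4a1 and Col27a1 had probes of like change, while Gpc1, Col5a2, Col23a1 and Col22a1 did not. Of the probes that went against the chosen one, Col23a1 probe 19734 had a change of -0.95 ± 0.28 (adjusted p = 0.109 with every probe tested) beside 0.23 on the chosen probe. Col22a1 probe 13862 had a change of -0.72 ± 0.25 (0.175), beside 0.05. Col5a3 and Lox each had a single probe, so no second measurement of them was at hand.

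**Figure D3:**
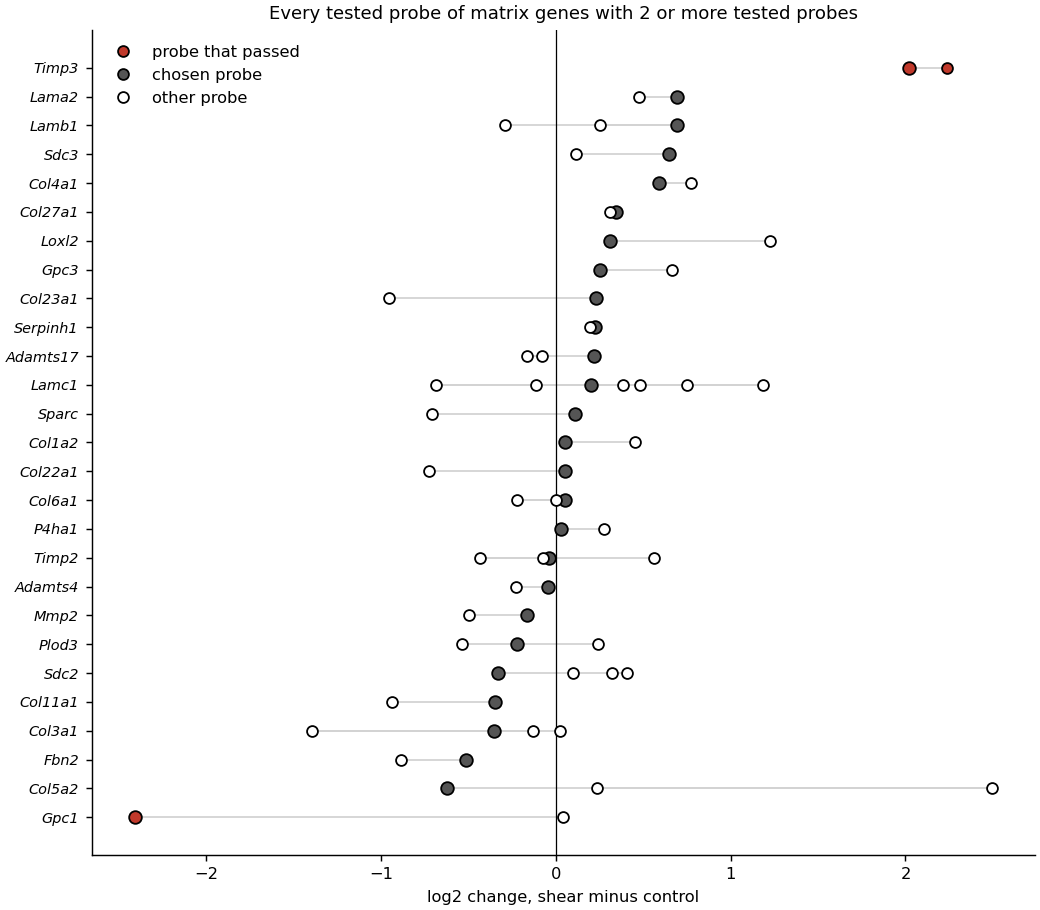
Log2 change, shear minus control, of each tested probe of the 27 matrix genes with at least 2 tested probes, with a line joining the probes of a gene. Large grey points are the probes chosen to stand for the gene, red points those that passed and open points the others. The 2 probes of Timp3 lie together near 2, and those of Gpc1 lie apart at -2.41 and 0.04.

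The genes that act beside these members were read from 5 lists, put together with earlier results of these data known. Of 21 other matrix proteins 1 rose, with a list median of 0.06. Ccn1, a matricellular protein that binds integrins, had a mean log2 signal of 4.54 ± 0.31 in shear and 2.07 ± 0.66 in control samples (SD), a change of 2.47 ± 0.48 (adjusted p = 0.0241). The Ccn1 call was lost without shear replicate 1 (0.0551), without control replicate 3 (0.0574), without the shear array of replicates 3 and 4 or of 5 and 6, and without the control array of replicates 1 and 2 or of 3 and 4 (0.0745 to 0.125). Tnc, the adhesion-modulating protein tenascin C, ranged from 3.66 to 4.89 in shear and from 2.41 to 3.63 in control samples, a change of 1.28 ± 0.35 (adjusted p = 0.0954). Its other probes had changes of 2.39 ± 0.39 and 1.49 ± 0.37, and the first of these passed with every probe tested (adjusted p = 0.0073). Tgfbi had a change of 0.72 ± 0.28 and Emilin1 one of -1.19 ± 0.58.

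Of 14 genes of procollagen processing none passed in limma, and 3 had an unadjusted p under 0.05. Tgm2, a crosslinking transglutaminase, had a change of 0.95 ± 0.37, P3h1, a prolyl 3-hydroxylase, one of 0.77 ± 0.32, and Ppib, the cyclophilin of the collagen hydroxylation complex, one of -1.32 ± 0.58. Of 14 genes listed as other matrix proteases and inhibitors 1 rose, Plaur, which encodes a receptor and not a protease or inhibitor. The other 13 did not pass. Plaur, the urokinase receptor that focuses plasmin formation on the cell surface, had means of 2.46 ± 0.34 in shear and -0.27 ± 0.55 in control samples (SD), a change of 2.74 ± 0.36 that passed under each of the 31 other settings. Adam12, Adam17 and Plat did not pass, with changes of 1.01, -0.69 and 0.77.

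Of 16 genes of heparan and chondroitin sulfate synthesis 1 rose, 12 had a change above 0, and 6 had an unadjusted p under 0.05. Over all features 61.0% had a change above 0, and 2157 of 15603 had an unadjusted p under 0.05 in limma. The counts of this list were not tested against those shares. Ugdh makes the glucuronic acid donor for these chains and for hyaluronan. It ranged from 3.07 to 4.38 in shear and from 1.97 to 2.76 in control samples, a change of 1.37 ± 0.32 (adjusted p = 0.0483). Its other probes had changes of 1.34 ± 0.45 and 1.20 ± 0.37, which did not pass. The Ugdh call was at the threshold. It was lost when any single sample but shear replicate 4 was left out (0.0574 to 0.0861) and when any array but the shear array of replicates 1 and 2 was left out (0.101 to 0.213). Ext1, a heparan sulfate polymerase, had a change of 1.03 ± 0.26 (adjusted p = 0.0701), Sulf1, which removes sulfates from heparan chains, one of 1.08 ± 0.36, and Chst12, a chondroitin sulfotransferase, one of -0.93 ± 0.39. Of 11 matrix receptors none passed in limma, and 3 had an unadjusted p under 0.05. Cd44, the hyaluronan receptor, had a change of 1.04 ± 0.26 (adjusted p = 0.0652), with 1.04 on its other probe. Itga5, the alpha chain of the fibronectin receptor, had a change of 1.54 ± 0.42 (adjusted p = 0.0943), with 1.72 and 0.97 on other probes.

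**Figure D4:**
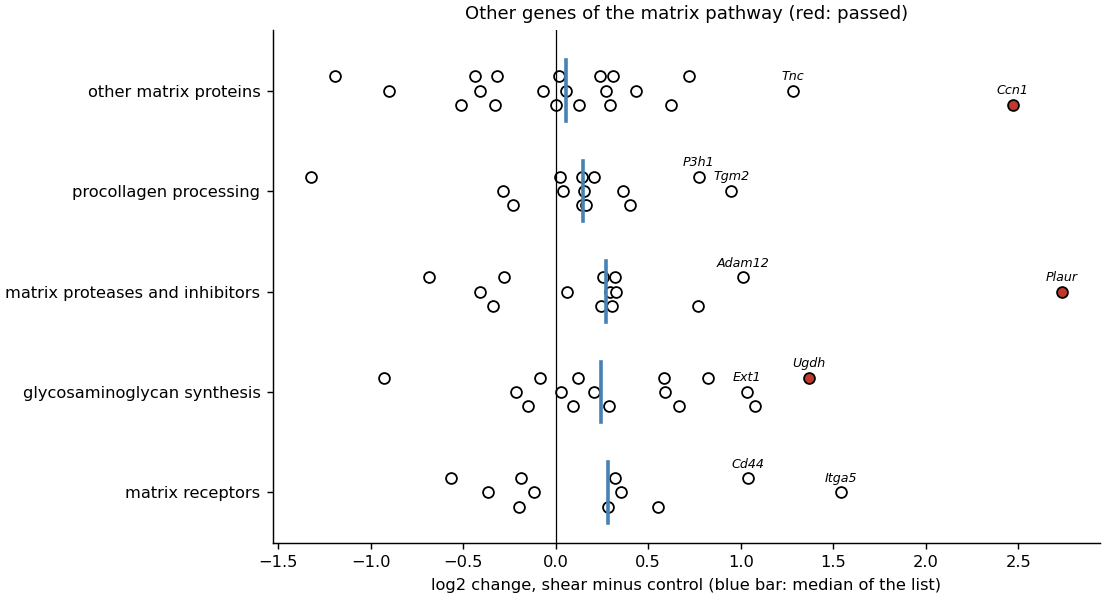
Log2 change, shear minus control, of each tested gene of 5 lists of matrix-related genes that are not members. Red points passed, open points did not, and the blue bar is the median of the list. Ccn1, Plaur and Ugdh passed, and the list medians lie between 0.06 and 0.28.

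No marker of another cell type passed, among 4 chondrocyte, 5 macrophage and osteoclast, 6 endothelial, 4 adipocyte and 4 muscle genes. Of these, Eng had an unadjusted p under 0.05 in limma. The 4 chondrocyte genes, Comp, Col9a1, Col2a1 and Col11a1, are themselves among the matrix genes tested, so they are not a separate check. The mean level of the endothelial genes measured in all samples was -0.12 to 0.32 in shear and -0.34 to 0.46 in control samples. That of the macrophage and osteoclast genes was 0.44 to 1.59 in shear and 0.53 to 1.26 in control samples. Their part in the results for matrix genes was not tested.

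**Figure D5:**
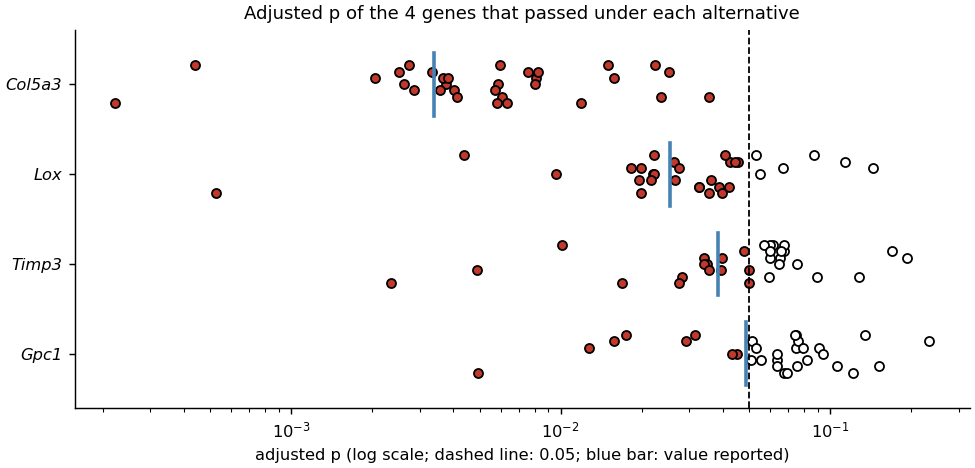
Adjusted p, on a log axis, of Col5a3, Lox, Timp3 and Gpc1 under each of 31 other settings of normalization, filter, model, probe choice and samples. Red points are under the threshold of 0.05 (dashed line), open points are not, and the blue bar is the value reported. Col5a3 stays under the threshold in all 31, Lox misses it in 6, Timp3 in 16 and Gpc1 in 23.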

How the data were processed

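The file deposited by the authors holds log2 values, with 1 value for each feature in each sample. A net fluorescence in whole numbers, divided by its median within a block of 598 features, lies behind each log2 value. This was checked in 576 combinations of 48 blocks and 12 samples, all of which gave whole numbers within 0.002. How the arrays were scanned, how background was treated and when a spot was left empty is not given in the sources used here. The number of arrays limits the precision.

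Members were matched on the platform annotation, and their symbols were the same after update through the Entrez number. The members and lists were chosen with earlier results of these data known. A gene's chosen probe was the one with values in the most samples and, among equals, the highest mean. Probes without a gene symbol were kept as separate features. Features with values in fewer than 4 of the 6 samples of either group were left out. From the dyes and the series design, replicates 1 and 2 of a group, 3 and 4, and 5 and 6 were each read as 1 array, which the labels do not state. The model, fitted in R 4.3.3 with limma 3.58.1, had fixed effects of group and dye, and a random effect of array with an estimated correlation of 0.736. Adjusted p-values are Benjamini-Hochberg values over every feature tested, with a threshold of 0.05, and standard errors are limma's moderated ones. The fit was also run on simulated data drawn with the model's own array correlation and normal errors, which cannot check those assumptions.

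Alternatives changed the centring, used quantile or cyclic loess normalization, changed the filter, the array, dye and replicate terms, the choice of probe or the variance model, and left out each sample and each array. Lowest, median and highest values are given for genes that passed and for up to 3 genes by smallest p in each class, and up to 4 genes by smallest p and all that passed are named from each list. Promoter bases are RefSeq's, and no sequence is printed for Lox or Gpc1. Tables and plots used Python 3.11.15, pandas 2.3.3 and matplotlib 3.10.9.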

Additional observations from a re-analysis of the deposited data

Results flagged for a closer look

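In 6 of 64 groups of 4 to 6 samples with a value, 1 sample stood far from the rest by Dixon's criterion. Chance gives about 1 in 20, and samples of an array are not independent. In shear samples, Comp was low in replicate 1 (log2 signal -0.31, next -0.05), Col4a1 was low in replicate 2 (3.52, next 4.10), and Lama2 was low in replicate 2 (2.16, next 2.73). In control samples, Loxl2 was low in replicate 4 (-0.21, next 0.46), Mmp2 was low in replicate 4 (3.17, next 3.87), and Fbn2 was high in replicate 3 (2.18, next 1.31). None of these genes passed, and replicates 3 and 4 of the control group are the array with the fewest values.

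Of the 30 matrix probes left out of the test, 4 had a value in at least 5 shear samples and in fewer control samples than the test required. Col23a1 probe 15807 had a mean log2 signal of -2.16 in 5 shear samples and a value in 0 control samples. Adamts10 probe 21831 averaged -1.05 in 6 shear and -0.73 in 2 control samples. Lamb1 probe 22141 averaged -2.97 in 5 shear and -2.86 in 2 control samples. Adamts19 probe 23256 averaged -2.62 in 5 shear and -2.65 in 3 control samples. For the Lamb1 and Adamts19 probes the group means differed by less than the SD of the shear samples.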

How the results depend on the processing

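Over 31 other settings no called matrix gene changed direction. Beside 232 features and 4 matrix genes as reported, 133 and 3 passed with quantile normalization, 1717 and 7 without the array term, 72 and 2 on the mean of each array, 366 and 4 without the dye term, and 354 and 4 with every probe tested. Centring on the features measured in all samples and cyclic loess moved the median change of all features from 0.11 to -0.02 and -0.01, gave 239 features each (164 higher and 75 lower, and 165 higher and 74 lower, against 200 and 32), and both lost Timp3 (adjusted p = 0.0616 and 0.0672). With single samples left out ("leave-one-out"), 104 to 244 features and 1 to 3 matrix genes passed. Matrix genes fell to 1 without shear replicate 1 and to 2 without shear replicates 3 or 5 or control replicates 1, 2 or 3. Without the shear arrays of replicates 1 and 2, 3 and 4, and 5 and 6 the counts were 139 and 1, 38 and 1, and 67 and 2. Without the control arrays they were 116 and 2, 128 and 3, and 83 and 1. The cause of these shifts was not tested, beyond the fewer samples in each. Same-numbered shear and control samples showed no shared deviation (correlations of -0.09 to 0.10), and only shear replicate 3 correlated best with its own number. With a replicate block 100 features and 1 matrix gene, Col5a3, passed. Among 61 matrix genes that did not pass, 34 changed sign under at least 1 setting, in 142 of 1818 values. Precision rests on 3 arrays a group.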

Other observations

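Col5a2, which did not pass, had a probe whose control samples fell into 2 levels. On probe 13213 the log2 signal was 1.75 to 3.28 in the 6 shear samples. Control replicates 3 and 4, taken to share an array, were at 2.07 and 2.42, and control replicates 1, 2, 5 and 6 at -1.78, -0.90, -1.02 and -0.51. The change over all samples was 2.49 ± 0.74 (SE, n = 6 per group, limma adjusted p = 0.111 with every probe tested), the opposite in sign to the chosen probe, at -0.62. Col3a1 probe 11603 had the reverse arrangement, with control replicates 1 and 2 at 1.52 and 2.70 and the other 4 control samples at 3.96 to 4.83, against 1.25 to 2.89 in shear samples. Its change was -1.39 ± 0.58 (SE, limma adjusted p = 0.282 with every probe tested). The cause of these arrangements was not tested.

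The matrix genes had a wider spread within groups than the median feature. Their median SD was 0.41 in shear and 0.43 in control samples, against 0.33 in shear and 0.36 in control samples over all features, and their median standard error was 0.36 against 0.30. Fn1 ranged from 3.79 to 6.0 in shear and from 4.25 to 6.62 in control samples. Col1a2 ranged from 2.79 to 5.86 in shear and from 3.01 to 5.60 in control samples.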
